A study of Mus musculus with 26 samples.

Results

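The primary granule genes described here were Elane, Prtn3, Ctsg, Prss57, Cfd, Mpo, Ctsc, Serpinb1a and Calr, 9 of the 54146 gene identifiers in the RNA-seq count files. They were chosen by name, and each symbol matched a single mouse Ensembl identifier. The study compared MA9+SETDB1 cells with MA9+EV cells, both grown from mouse bone marrow cells depleted of lineage-positive cells (lin-). MA9+SETDB1 cells had been spin-infected with retroviruses carrying the MLL-AF9 oncogene and SETDB1, and MA9+EV cells with MLL-AF9 and the empty MSCVpuro vector, so MLL-AF9 was present in both arms. Both arms were selected with puromycin for about 3 to 6 weeks in medium with IL-3 and SCF and were kept in culture for 8 to 12 weeks. Each arm had 3 poly-A selected, strand-specific RNA-seq libraries, described by the submitters as biological replicates. No source used here says whether the replicates came from separate transductions, so p-values refer to the spread among these libraries, which may be technical. The species of the SETDB1 coding sequence and the number of founder clones are also unstated.

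Primary (azurophil) granules are the first granules that a neutrophil precursor builds, at the promyelocyte stage. They store serine proteases together with myeloperoxidase, an enzyme that makes hypochlorous acid from hydrogen peroxide and chloride. The proteases are made as inactive precursors, cathepsin C clips them into active enzymes inside the cell, and cytosolic serpins neutralise protease that escapes. Elane, Prtn3 and Mpo are among the genes by which granulocyte-monocyte progenitors and promyelocytes are usually recognised.

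The promoters of Elane, Prtn3, Mpo and Ctsg are shown. Among the members with counts in both arms, these 4 genes were lower in MA9+SETDB1 by the largest amounts. Each sequence is the 250 bases before the annotated start, 5′ to 3′ on the gene's own strand, from RefSeq on GRCm38.p6. Elane lay at chr10:79886062-79886311 on the plus strand, Prtn3 at chr10:79879417-79879666 on the plus strand, Mpo at chr11:87793534-87793783 on the plus strand and Ctsg at chr14:56102575-56102824 on the minus strand. Capitals mark matches to the PU.1 letters GAGGAA, the MYB letters TAACNG or the RUNX letters TGTGGT on either strand.
Elane: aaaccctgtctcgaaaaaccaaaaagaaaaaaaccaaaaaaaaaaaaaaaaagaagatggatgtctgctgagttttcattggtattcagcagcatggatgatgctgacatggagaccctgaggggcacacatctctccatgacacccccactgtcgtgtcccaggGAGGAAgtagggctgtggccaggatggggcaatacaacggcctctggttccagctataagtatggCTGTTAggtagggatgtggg
Prtn3: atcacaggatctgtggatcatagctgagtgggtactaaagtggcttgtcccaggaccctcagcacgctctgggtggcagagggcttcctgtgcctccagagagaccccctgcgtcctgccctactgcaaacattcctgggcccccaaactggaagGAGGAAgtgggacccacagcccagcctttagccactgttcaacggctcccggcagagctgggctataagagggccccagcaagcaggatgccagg
Mpo: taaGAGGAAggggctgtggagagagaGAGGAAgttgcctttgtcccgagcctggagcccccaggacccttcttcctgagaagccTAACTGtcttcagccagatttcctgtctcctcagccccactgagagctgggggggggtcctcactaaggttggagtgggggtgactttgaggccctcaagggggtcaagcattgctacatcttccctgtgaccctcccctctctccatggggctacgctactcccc
Ctsg: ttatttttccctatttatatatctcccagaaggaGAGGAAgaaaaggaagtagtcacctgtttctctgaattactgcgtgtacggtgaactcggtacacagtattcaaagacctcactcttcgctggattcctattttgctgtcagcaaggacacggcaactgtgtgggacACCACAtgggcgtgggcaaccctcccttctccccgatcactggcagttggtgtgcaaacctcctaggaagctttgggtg

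Of the 9 genes, 7 had a promoter in the RefSeq table (Prss57 and Serpinb1a did not). The PU.1 letters were found on either strand in 5 of the 7, namely Elane, Prtn3, Mpo, Ctsg and Ctsc, and in 23.3% of the 32851 promoters of the same length. In Elane the match began 85 bases before the start and in Prtn3 95 bases before it, whereas Ctsg had it at 216 bases and Mpo at 247 and at 224 bases. The MYB letters were present in 2 of the 7, Elane and Mpo, against 19.8% of all promoters, and the RUNX letters in Ctsg alone, against 14%. The C/EBP letters TTNNGNAA and the GATA letters AGATAA occurred in 0 of the 7 windows, against 36.8% and 9.99% of all promoters. No match overlapped another in the 4 printed sequences. A match describes the letters in these windows and was not tested for binding.

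The libraries held 18070482 to 21531528 gene counts in MA9+SETDB1 and 18165046 to 22561757 in MA9+EV. Setdb1, the histone H3 lysine 9 methyltransferase gene that was introduced, stood at 475, 605 and 607 CPM (counts scaled to a library of 1e+06) in MA9+SETDB1 replicates 1, 2 and 3, against 105, 108 and 109 CPM in MA9+EV replicates 1, 2 and 3, in accord with the labels. Replicate 1 stood apart in both arms. Counts of replicates 2 and 3 differed by a chi-square of 3.14 per degree of freedom in MA9+SETDB1 and 4.29 in MA9+EV, whereas pairs with replicate 1 gave 93.9 and 102 in MA9+SETDB1 and 88.1 and 78.3 in MA9+EV. Results are therefore also given without replicate 1 of both arms, an alternative chosen after seeing the data. That fit keeps only the close replicates 2 and 3, so its p-values and calls leave out most of the spread among the libraries. Of the 12986 genes that passed the filter on low counts, 6951 differed between the arms at an edgeR quasi-likelihood adjusted p under 0.05.

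All 9 primary granule genes passed the filter, and 7 of them were lower in MA9+SETDB1, 1 was higher and 1 did not pass. Among all tested genes 26.2% were lower, 27.4% higher and 53.5% called in either direction. The arms did not overlap for 8 of the 9 genes, against 64.6% of all tested genes. The 7 lower genes and these 8 include Cfd, which had no counts in MA9+SETDB1. Cfd passed the filter through MA9+EV alone, so it could only be called lower. The median log2 fold change of the 9 genes was -5.68, or -4.85 with Cfd at its bound, beside -0.01 over all tested genes. In bulk libraries such as these, fewer cells that express a gene and less of its RNA per cell cannot be told apart. CPM values are not scaled to transcript length, so the levels of different genes are not ranked against each other.

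**Figure D1:**
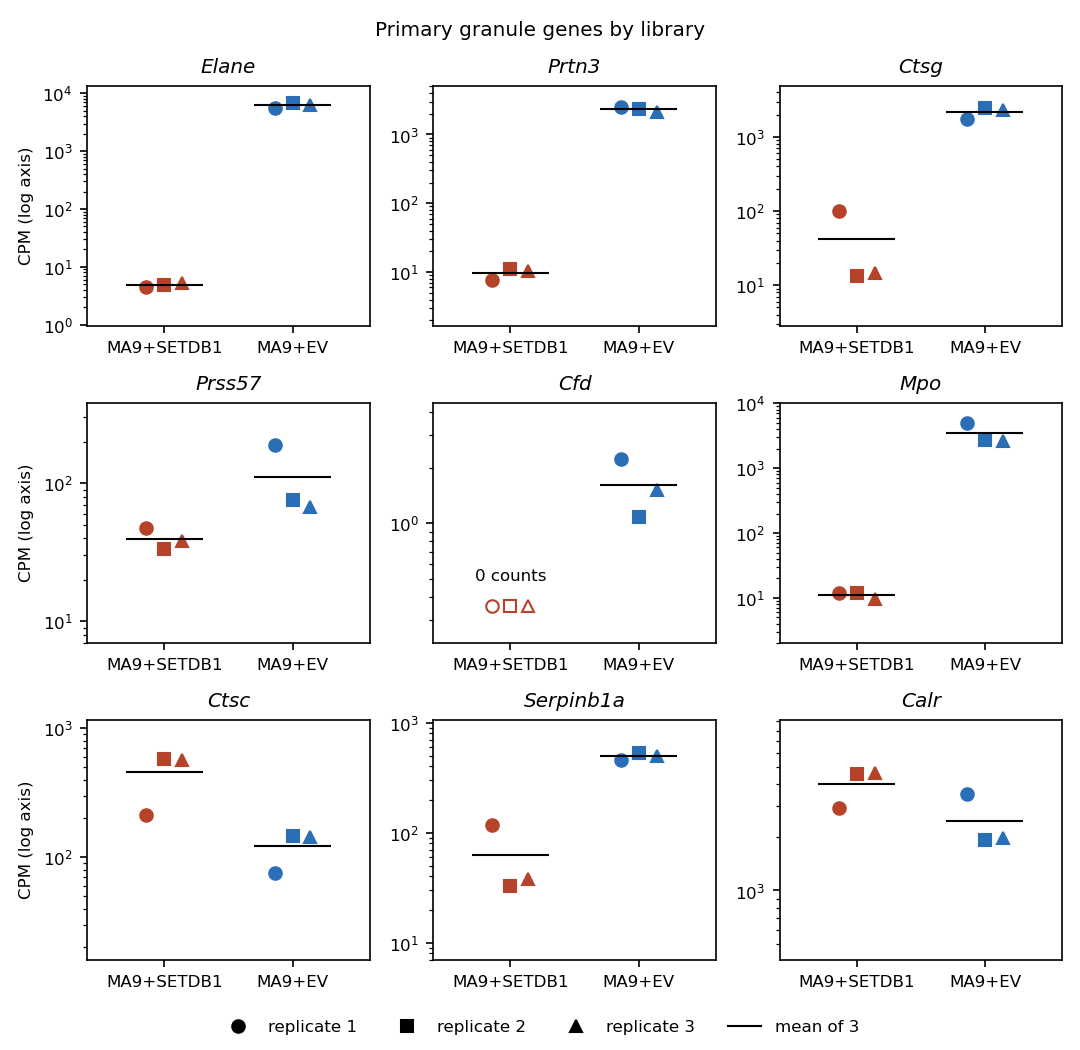
Level of each of the 9 primary granule genes in CPM (log axis) in the 3 MA9+SETDB1 and 3 MA9+EV libraries, with a symbol for each replicate number and a line at the mean. The Elane libraries lie between 4.48 and 5.19 CPM in MA9+SETDB1 and between 5477 and 6694 CPM in MA9+EV, Cfd has no counts in MA9+SETDB1, and the arms overlap only for Calr.

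The 4 serine proteases that neutrophils store, Elane, Prtn3, Ctsg and Prss57, were all lower in MA9+SETDB1. Elane encodes neutrophil elastase (ENSMUSG00000020125.7, chromosome 10, 79886312 to 79888216, GRCm38.p6), stood at 4.48, 4.81 and 5.19 CPM in MA9+SETDB1 replicates 1, 2 and 3, against 5477, 6694 and 6351 CPM in MA9+EV replicates 1, 2 and 3. The 3 libraries of each arm lay close together and the arms were far apart. Its fitted level was 1277-fold lower in MA9+SETDB1 (log2 fold change -10.32, SE 0.23, adjusted p = 1.02e-06 by edgeR), the 39th most negative fold change of the 12986 genes. Elane was not at zero in MA9+SETDB1, where 80, 79 and 100 counts were recorded.

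Prtn3 encodes proteinase 3, an elastase-like protease of the same granule (ENSMUSG00000057729.12, chromosome 10, 79879667 to 79883174). It stood at 7.83, 11.1 and 10.3 CPM in MA9+SETDB1 replicates 1, 2 and 3, against 2528, 2377 and 2135 CPM in MA9+EV replicates 1, 2 and 3. Replicate 1 was the lowest MA9+SETDB1 library and the highest MA9+EV library, and the arms did not overlap. The fitted level was 241-fold lower in MA9+SETDB1 (log2 fold change -7.91, SE 0.22, adjusted p = 1.96e-06 by edgeR).

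Ctsg, the gene of the chymotrypsin-like protease cathepsin G (ENSMUSG00000040314.2, chromosome 14, 56099885 to 56102574), was uneven in MA9+SETDB1. It stood at 99.5, 13.3 and 14.4 CPM in MA9+SETDB1 replicates 1, 2 and 3, against 1769, 2435 and 2342 CPM in MA9+EV replicates 1, 2 and 3. MA9+SETDB1 replicate 1 was 7.18 times the mean of replicates 2 and 3, a ratio that 0.925% of the 11457 genes with at least 1 CPM in that arm matched or passed in either direction. All MA9+SETDB1 libraries still lay below all MA9+EV libraries, with a log2 fold change of -5.68 (SE 0.92, adjusted p = 0.00217 by edgeR). The log2 fold change was -6.39 when replicate numbers were blocked, -7.28 without MA9+SETDB1 replicate 1 and -7.41 without replicate 1 of both arms.

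Prss57 encodes neutrophil serine protease 4 (ENSMUSG00000020323.14, chromosome 10, 79781474 to 79794684). It changed much less, with 47.5, 33.2 and 38.3 CPM in MA9+SETDB1 replicates 1, 2 and 3, against 191, 75.3 and 67.3 CPM in MA9+EV replicates 1, 2 and 3. MA9+EV replicate 1 was 2.67 times the mean of MA9+EV replicates 2 and 3, and the lowest MA9+EV library lay above the highest MA9+SETDB1 library. The log2 fold change was -1.49 (SE 0.41, adjusted p = 0.0206 by edgeR). It was -0.85 without MA9+EV replicate 1 (adjusted p = 0.00972), and the call was lost without MA9+SETDB1 replicate 2 (adjusted p = 0.0702) or MA9+SETDB1 replicate 3 (adjusted p = 0.0652) and with replicates 2 and 3 summed (adjusted p = 0.0502). The annotated span of Prss57 overlaps those of Fstl3 and Palm, so its count is uncertain.

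Cfd, the gene of complement factor D (adipsin), a serine protease that activates the alternative complement pathway (ENSMUSG00000061780.6, chromosome 10, 79890853 to 79892655), was scarce in both arms. No Cfd count was recorded in the 3 MA9+SETDB1 libraries, against 54, 26 and 30 counts, or 2.23, 1.08 and 1.51 CPM, in MA9+EV replicates 1, 2 and 3. With a floor of 3 counts over the MA9+SETDB1 arm, equal to 0.056 CPM, Cfd was at least 28.8-fold lower in MA9+SETDB1 (edgeR adjusted p = 0.00156). The floor covers counting error only.

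Mpo encodes myeloperoxidase, an abundant enzyme of the granule (ENSMUSG00000009350.13, chromosome 11, 87793784 to 87804412). It stood at 12.0, 11.9 and 9.50 CPM in MA9+SETDB1 replicates 1, 2 and 3, against 5069, 2736 and 2655 CPM in MA9+EV replicates 1, 2 and 3. MA9+EV replicate 1 was the highest library, and the gap between the arms was larger than the spread within either. The fitted level was lower in MA9+SETDB1 by a log2 fold change of -8.29 (SE 0.39, adjusted p = 1.15e-05 by edgeR). Mpo overlaps an annotated long non-coding RNA, and without a stated strand setting for counting, reads of the pair cannot be told apart.

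The processing enzyme moved the other way. Ctsc encodes cathepsin C (dipeptidyl peptidase I), which removes the amino-terminal dipeptide that keeps granule proteases inactive (ENSMUSG00000030560.17, chromosome 7, 88278024 to 88315861). It stood at 213, 582 and 574 CPM in MA9+SETDB1 replicates 1, 2 and 3, against 75.9, 146 and 144 CPM in MA9+EV replicates 1, 2 and 3. Replicate 1 was the lowest library of both arms, and MA9+SETDB1 replicate 1 remained above every MA9+EV library. Ctsc was higher in MA9+SETDB1 by a log2 fold change of 1.90 (SE 0.44, adjusted p = 0.00957 by edgeR), and the call was lost with replicates 2 and 3 summed (adjusted p = 0.0605).

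Serpinb1a, a cytosolic inhibitor of elastase, proteinase 3 and cathepsin G (ENSMUSG00000044734.16, chromosome 13, 32842092 to 32853206), was lower along with its target proteases. It stood at 117, 33.1 and 37.7 CPM in MA9+SETDB1 replicates 1, 2 and 3, against 461, 529 and 495 CPM in MA9+EV replicates 1, 2 and 3. MA9+SETDB1 replicate 1 was 3.29 times the mean of replicates 2 and 3, and the arms did not overlap. The log2 fold change was -2.99 (SE 0.50, adjusted p = 0.0025 by edgeR), and -3.79 without MA9+SETDB1 replicate 1.

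Calr, the gene of calreticulin, a chaperone of the endoplasmic reticulum that binds the Mpo precursor (ENSMUSG00000003814.8, chromosome 8, 84842088 to 84846931), did not pass the test. It stood at 2911, 4521 and 4587 CPM in MA9+SETDB1 replicates 1, 2 and 3, against 3495, 1933 and 1991 CPM in MA9+EV replicates 1, 2 and 3. MA9+SETDB1 replicate 1 lay below MA9+EV replicate 1, so the arms overlapped. The log2 fold change was 0.70 (SE 0.30, adjusted p = 0.0932 by edgeR). The test was passed when MA9+EV replicate 1 was left out (log2 fold change 1.03, edgeR adjusted p = 0.0151), when MA9+SETDB1 replicate 1 was left out (0.89, edgeR adjusted p = 0.0385) and with DESeq2 (adjusted p = 0.0385). Without replicate 1 of both arms the log2 fold change was 1.23 (edgeR adjusted p = 4.05e-18), a value that rests on the close replicates 2 and 3. With replicates 2 and 3 summed the edgeR adjusted p reached 0.49.

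**Figure D2:**
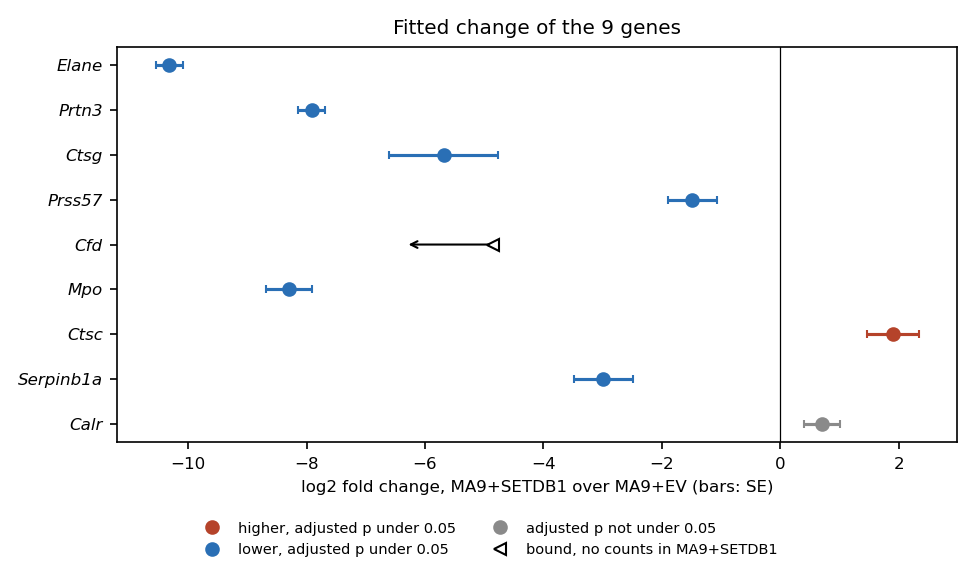
Fitted log2 fold change of each of the 9 genes, MA9+SETDB1 over MA9+EV, with bars for the standard error. Cfd is drawn at its bound because it had no counts in MA9+SETDB1. Elane lies at -10.32, Ctsc is the gene called higher at 1.90, and Calr at 0.70 did not pass.

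The plot of fitted changes shows how unequal the 9 genes were. Elane, Mpo, Prtn3 and Ctsg spanned log2 fold changes of -10.32 to -5.68, while Serpinb1a and Prss57 lay at -2.99 and -1.49. Without replicate 1 of both arms the values were -10.33 for Elane, -7.97 for Mpo, -7.71 for Prtn3, -7.41 for Ctsg, -3.84 for Serpinb1a, -0.98 for Prss57, 2.01 for Ctsc and 1.23 for Calr. The order of the 4 most changed genes was kept when replicate 1 was left out of both arms.

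The granule genes also took a much smaller part of each library. Elane, Prtn3, Mpo and Ctsg together made up 0.0122%, 0.00365% and 0.00352% of the gene counts of MA9+SETDB1 replicates 1, 2 and 3 (2213, 677 and 758 counts), against 1.59%, 1.54% and 1.47% in MA9+EV replicates 1, 2 and 3. The 95% Wilson intervals of the MA9+SETDB1 shares were 0.0118% to 0.0128%, 0.00339% to 0.00394% and 0.00328% to 0.00378%, and cover counting error only. The 3 MA9+SETDB1 shares were all below the MA9+EV shares, and replicate 1 was the highest library of both arms. All 9 genes together took 0.338%, 0.462% and 0.472% in MA9+SETDB1, mostly from Calr at 0.288%, 0.401% and 0.410%, against 2.05%, 1.83% and 1.77% in MA9+EV.

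**Figure D3:**
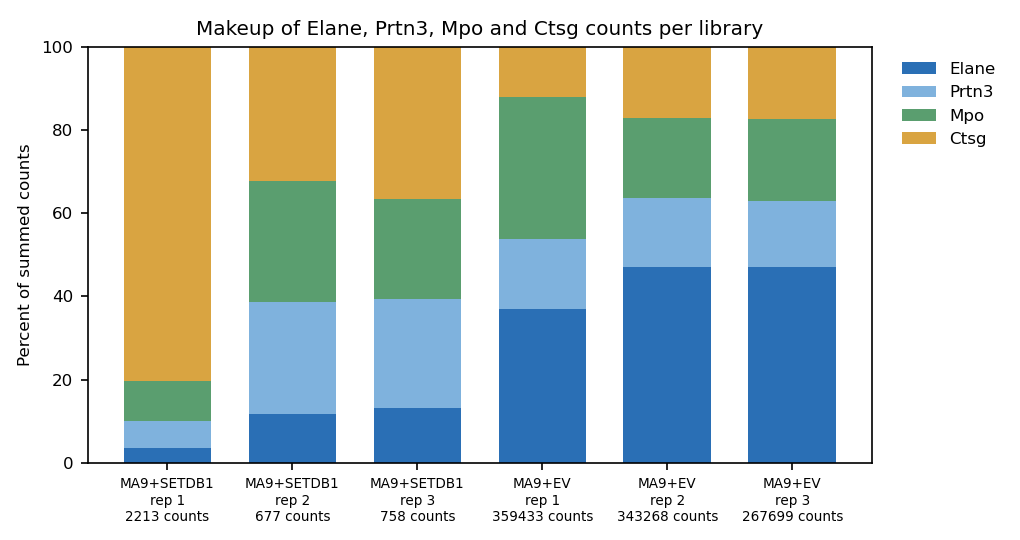
Share of the summed counts of Elane, Prtn3, Mpo and Ctsg taken by each gene, in percent, per library, with the summed count under each bar. Elane takes 3.62% to 13.2% in the 3 MA9+SETDB1 libraries and 36.9% to 47.1% in the 3 MA9+EV libraries, and Ctsg takes 80.4% in MA9+SETDB1 replicate 1.

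The makeup of what was left differed as well, as the stacked plot of the 4 genes shows. Elane gave 3.62%, 11.7% and 13.2% of their summed counts in MA9+SETDB1 replicates 1, 2 and 3, against 36.9%, 47.0% and 47.1% in MA9+EV replicates 1, 2 and 3. Ctsg gave 80.4%, 32.3% and 36.5% in MA9+SETDB1, against 11.9%, 17.1% and 17.4% in MA9+EV. The 95% Wilson interval of the Ctsg share was 78.7% to 82.0% in MA9+SETDB1 replicate 1, and 28.9% to 36.0% and 33.2% to 40.0% in MA9+SETDB1 replicates 2 and 3, so replicate 1 stood apart by more than counting error.

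Elane and Prtn3 lie side by side on chromosome 10, and their ratio of counts differed between the arms. It was 0.571, 0.432 and 0.505 in MA9+SETDB1 replicates 1, 2 and 3, against 2.17, 2.82 and 2.97 in MA9+EV replicates 1, 2 and 3. The mean log2 ratio was -1.0 in MA9+SETDB1 and 1.39 in MA9+EV, a difference of -2.40 (two-sided exact permutation test, p = 0.1, the smallest that 3 libraries against 3 allow). The ratio of Elane to Ctsg was 0.0450, 0.361 and 0.361 in MA9+SETDB1, against 3.10, 2.75 and 2.71 in MA9+EV (difference of mean log2 ratios -3.98, exact permutation p = 0.1). With 2 ratios tested, the Benjamini-Hochberg adjusted values from these exact tests were also 0.1. Such tests could not reach the 0.05 threshold, and the ratios were chosen with earlier results of these data known, so no conclusion is drawn from them. No ratio overlapped between the arms.

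Elane, Prtn3, Cfd and Prss57 share a stretch of chromosome 10. Prtn3 and Elane are 3137 bases apart, Elane and Cfd 2636 bases, and Prss57 lies 84982 bases from Prtn3. Within 200 kb of these 4 genes, 37 other genes of the RefSeq annotation had a count row and 24 were tested. Of the 24, 5 were higher, 4 were lower and 15 did not pass, with a median log2 fold change of 0.36. Among all tested genes 27.4% were higher and 26.2% lower. Blocking by replicate number gave 8 higher, leaving out replicate 1 of both arms gave 13, and summing replicates 2 and 3 gave 0 higher and 2 lower (edgeR). Leaving out single libraries gave 1 to 7 higher, with 1 without MA9+EV replicate 2, 2 without MA9+EV replicate 3 and 3 when MA9+SETDB1 replicate 2 or 3 was dropped, where also only 2 were lower.

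Plppr3, a member of the phospholipid phosphatase-related family known from neurons, was the neighbour that moved by as much as the granule genes. It lies 4708 bases from Prtn3 on the side away from Elane and stood at 0.280, 0.670 and 1.25 CPM in MA9+SETDB1 replicates 1, 2 and 3, against 160, 174 and 169 CPM in MA9+EV replicates 1, 2 and 3. The arms did not overlap, and the log2 fold change was -7.81 (SE 0.38, adjusted p = 1.32e-05 by edgeR), or -8.46 without MA9+SETDB1 replicate 3. On the other side, 2050 bases beyond Cfd, Med16, a subunit gene of the Mediator complex, averaged 43.9 ± 3.70 CPM in MA9+SETDB1 and 56.3 ± 1.82 CPM in MA9+EV (SD, n = 3 each; log2 fold change -0.36, edgeR adjusted p = 0.0255).

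The other called neighbours changed by smaller amounts. Ptbp1, a splicing regulator gene whose annotated span overlaps that of Plppr3, so that the counts of both are uncertain, had a log2 fold change of -0.50 (edgeR adjusted p = 0.0168), and Wdr18 one of -0.77 (edgeR adjusted p = 0.00207). The genes called higher were Fstl3 at 1.39, Abca7 at 0.73, Tmem259 at 0.66, Palm at 0.60 and Sbno2 at 0.42 on the log2 scale. Bsg, the gene of the surface glycoprotein basigin, stood at 1427 ± 632 CPM in MA9+SETDB1 and 696 ± 291 CPM in MA9+EV (SD, n = 3 each) and did not pass (edgeR adjusted p = 0.0999). It passed when replicate numbers were blocked (edgeR adjusted p = 0.00171), with DESeq2 (0.0343) and when replicate 1 of MA9+SETDB1 or of both arms was left out (edgeR, 0.0196 and 3.91e-17). The last value rests on the close replicates 2 and 3, and with these summed the edgeR adjusted p was 0.27. The calls of Fstl3, Palm, Med16, Ptbp1, Abca7 and Sbno2 were lost when single libraries were left out, with edgeR adjusted p up to 0.126, 0.096, 0.103, 0.0733, 0.101 and 0.0765 in that order. The library was MA9+EV replicate 2 or 3 for Fstl3, Palm, Med16, Abca7 and Sbno2, MA9+SETDB1 replicate 2 or 3 for Fstl3, Palm, Med16 and Ptbp1, and MA9+SETDB1 replicate 1 for Palm and Abca7.

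Around Ctsg on chromosome 14 no tested neighbour was called lower. Ctsg lies in a cluster of mast cell and cytotoxic cell protease genes. Of 24 other genes with a count row within 200 kb, 5 were tested and 10 had no counts in either arm. Of the 5, 4 were higher in MA9+SETDB1, beside 27.4% of all tested genes, and 1, Gm4819, did not pass. Cma1 and Gzmb, with 1 and 3 counts over MA9+EV, passed the filter on low counts only through MA9+SETDB1. They could therefore only be called higher. Mcpt8, the basophil protease gene 14385 bases from Ctsg, stood at 568, 169 and 170 CPM in MA9+SETDB1 replicates 1, 2 and 3, against 14.7, 28.1 and 25.4 CPM in MA9+EV replicates 1, 2 and 3. It was highest in MA9+SETDB1 replicate 1, the library in which Ctsg was also highest for its arm, and the arms did not overlap. Its log2 fold change was 3.73 (SE 0.58, adjusted p = 0.00174 by edgeR), or 2.91 without MA9+SETDB1 replicate 1.

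Cma1, the mast cell chymase gene 155209 bases from Ctsg, had 6859 counts over the MA9+SETDB1 libraries and 1 count over the MA9+EV libraries, a ratio of 8731 with a 95% counting interval from 1566 to 344900. Gzmb, the granzyme B gene 156261 bases from Ctsg on the other side, had 16823 counts over the MA9+SETDB1 libraries and 3 over the MA9+EV libraries, a ratio of 7138 with an interval from 2442 to 34620. Ctsg and Mcpt8 moved in opposite directions, and the ratio of Mcpt8 to Ctsg counts was 5.70, 12.6 and 11.8 in MA9+SETDB1 replicates 1, 2 and 3, against 0.00833, 0.0115 and 0.0109 in MA9+EV replicates 1, 2 and 3. Sdr39u1, a short-chain dehydrogenase family gene at the edge of the window, averaged 89.0 ± 7.28 CPM in MA9+SETDB1 and 5.95 ± 1.75 CPM in MA9+EV (SD, n = 3 each; log2 fold change 3.90, edgeR adjusted p = 2.72e-05). With no filter on low counts, 7 neighbours were called higher.

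**Figure D4:**
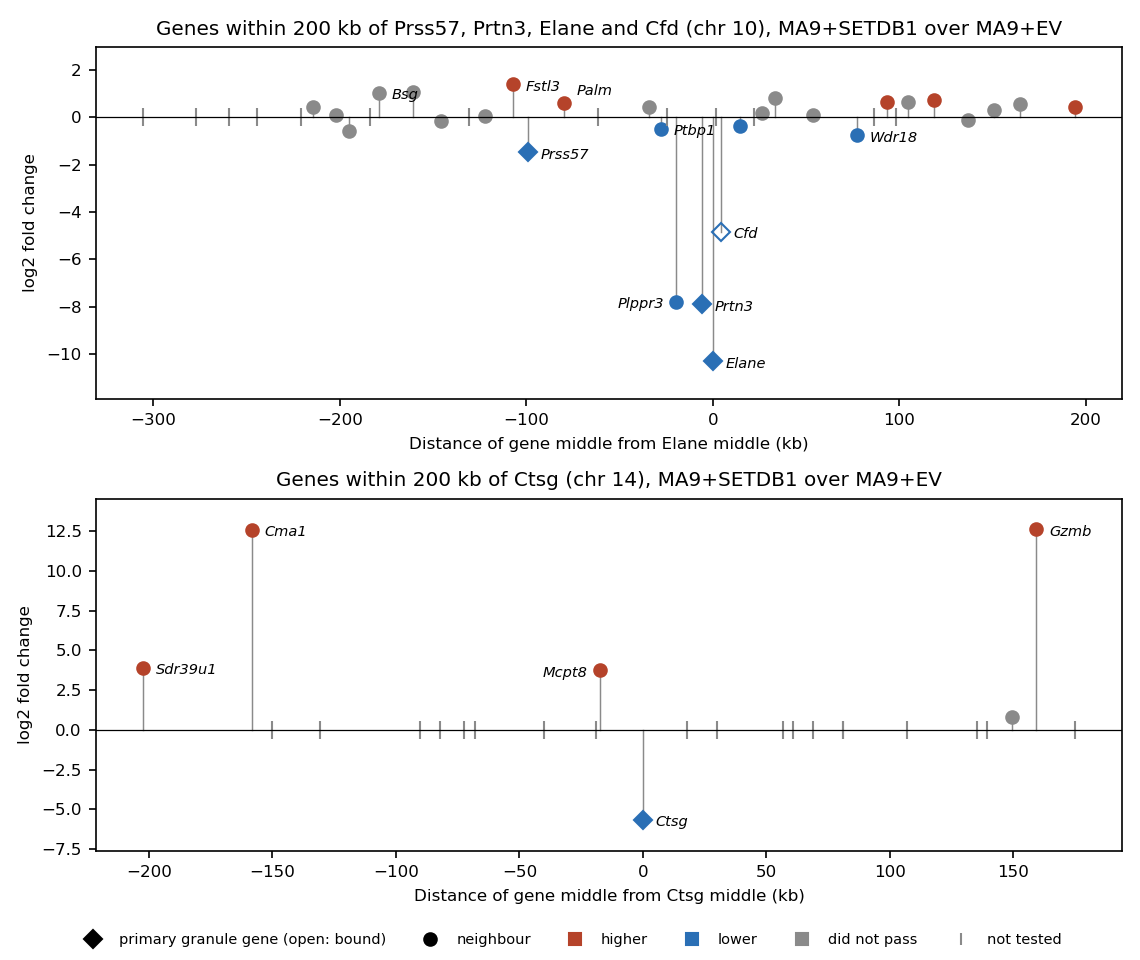
Log2 fold change, MA9+SETDB1 over MA9+EV, of the genes within 200 kb of Prss57, Prtn3, Elane and Cfd (top) and of Ctsg (bottom), against the distance between gene middles in kb, with ticks for genes that were not tested. Plppr3 at -7.81 stands beside Prtn3 and Elane while the other tested chromosome 10 neighbours lie between -0.77 (Wdr18) and 1.39 (Fstl3), and Mcpt8, Cma1 and Gzmb lie on the opposite side of 0 from Ctsg. The heights of Cma1 and Gzmb, with 1 and 3 counts in MA9+EV, depend on the prior count.

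Other luminal and membrane proteins of azurophil granules and lysosomes split in both directions. Of 19 listed genes 18 were tested, with 9 higher, 7 lower and 2 not called, and a median log2 fold change of 0.45. The counts of this list and of the related lists that follow stand beside 27.4% higher and 26.2% lower among all tested genes. Lyz2, the lysozyme gene of myeloid cells, stood at 1.58 ± 1.01 CPM in MA9+SETDB1 and 223 ± 14.4 CPM in MA9+EV (SD, n = 3 each; log2 fold change -7.13, edgeR adjusted p = 2.23e-05), and Lyz1, its near-identical copy, had 0 counts over MA9+SETDB1 and 10 over MA9+EV, so reads of the pair are uncertain. Man2b1, a lysosomal mannosidase gene, averaged 1150 ± 233 CPM in MA9+SETDB1 and 427 ± 35.6 CPM in MA9+EV (SD, n = 3 each; log2 fold change 1.43, edgeR adjusted p = 0.000646). Without MA9+SETDB1 replicate 1 Lyz2 had a log2 fold change of -7.77.

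Genes of the later neutrophil granules were mostly lower, with 9 of 12 lower, beside 26.2% of all tested genes. Of the rest, 1 was higher and 2 were not called, and the median log2 fold change of the list was -6.09. Hp, the haptoglobin gene, averaged 2.48 ± 0.420 CPM in MA9+SETDB1 and 296 ± 52.1 CPM in MA9+EV (SD, n = 3 each; log2 fold change -6.89, edgeR adjusted p = 2.57e-06). Lcn2, which encodes an iron-siderophore binding protein, averaged 1.53 ± 0.982 CPM in MA9+SETDB1 and 73.0 ± 52.1 CPM in MA9+EV, and Olfm4 averaged 0.0795 ± 0.0936 CPM in MA9+SETDB1 and 48.7 ± 34.7 CPM in MA9+EV (SD, n = 3 each). The log2 fold changes of Lcn2 and Olfm4 were -5.56 and -9.23 (edgeR adjusted p = 0.000665 and 0.000223). With MA9+EV replicate 1 left out these were -4.80 and -8.46. Lcn2 had -6.17 with MA9+SETDB1 replicate 1 left out, and Olfm4 had -10.53 and -8.62 with MA9+SETDB1 replicates 2 and 3 left out in turn. Itgam, the integrin alpha M gene, was the gene of this list that was higher, with a log2 fold change of 2.04 (edgeR adjusted p = 5.88e-05).

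Inhibitors of granule proteases were called in both directions. Of 20 listed genes 12 were tested, with 5 higher, 4 lower and 3 not called, and a median log2 fold change of 0.07. Among all tested genes 27.4% were higher and 26.2% lower. Serpinb6a, an inhibitor of cathepsin G, averaged 88.4 ± 48.3 CPM in MA9+SETDB1 and 6.53 ± 1.20 CPM in MA9+EV (SD, n = 3 each; log2 fold change 3.76, edgeR adjusted p = 0.000953). The clade A serpin genes Serpina3g and Serpina3f, which belong to a family of close copies and are therefore uncertain, had log2 fold changes of 5.29 and 4.63. Stfa1, a stefin gene whose product inhibits cysteine cathepsins, averaged 0.444 ± 0.348 CPM in MA9+SETDB1 and 38.5 ± 36.7 CPM in MA9+EV (SD, n = 3 each; log2 fold change -6.41, or -5.26 without MA9+EV replicate 1). The number called higher was 3 without MA9+EV replicate 3, MA9+SETDB1 replicate 2 or MA9+SETDB1 replicate 3. The 8 genes not tested included Serpinb1b and Serpinb1c, copies of Serpinb1a, each with 2 counts over MA9+SETDB1, and with 0 and 1 over MA9+EV.

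Proteins that fold glycoproteins in the endoplasmic reticulum, the compartment of calreticulin, were tested for all 20 listed genes. In MA9+SETDB1 6 were higher and 14 did not pass, beside 27.4% higher among all tested genes. The median log2 fold change of the list was 0.42. Pdia4, a disulfide isomerase gene, averaged 1869 ± 768 CPM in MA9+SETDB1 and 342 ± 74.0 CPM in MA9+EV (SD, n = 3 each; log2 fold change 2.45, edgeR adjusted p = 0.00147). Ero1l, Pdia3 and Dnajb11 had log2 fold changes of 2.04, 0.87 and 0.73, and Dnajb11 lost its call when replicate 2 or 3 of either arm was left out (adjusted p from 0.0849 to 0.111). The number called higher was 13 without MA9+SETDB1 replicate 1, 17 without replicate 1 of both arms, 3 when any of replicates 2 and 3 was left out, and 1 with replicates 2 and 3 summed. Of the 20 genes, 1 was called lower with the block, upper-quartile scaling, no filter on low counts or DESeq2, and when replicate 1 of MA9+EV or of both arms was left out. Summed over the 20 genes the level was 16921 to 28617 CPM in the MA9+SETDB1 libraries and 15327 to 17125 CPM in the MA9+EV libraries.

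Genes that sort proteins to granules or release granules were tested for all 18 listed. Of these, 4 were higher, 5 lower and 9 not called, beside 27.4% higher and 26.2% lower among all tested genes. The median log2 fold change of the list was -0.03. Unc13d, which primes granules for release, averaged 378 ± 6.57 CPM in MA9+SETDB1 and 110 ± 13.1 CPM in MA9+EV (SD, n = 3 each; log2 fold change 1.78, edgeR adjusted p = 4.93e-05). Rab27a, a small GTPase gene of granule docking, averaged 84.1 ± 25.7 CPM in MA9+SETDB1 and 263 ± 33.0 CPM in MA9+EV (SD, n = 3 each; log2 fold change -1.64, edgeR adjusted p = 0.00104). Gnptab and Gnptg, which encode the subunits of the enzyme that makes the mannose 6-phosphate sorting tag, moved apart, with log2 fold changes of -2.20 and 0.94. The number called lower was 3 without MA9+EV replicate 2 or MA9+SETDB1 replicate 2.

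Transcription factor genes known to control primary granule genes were called in both directions. Of 10 tested genes 3 were higher, 5 lower and 2 not called (median log2 fold change -0.33). Beside them, 27.4% of all tested genes were higher and 26.2% lower. Lef1, the remaining listed gene, had no counts. Gfi1, a repressor needed for neutrophil development, averaged 6.99 ± 6.26 CPM in MA9+SETDB1 and 402 ± 90.2 CPM in MA9+EV (SD, n = 3 each; log2 fold change -5.84, edgeR adjusted p = 0.000427, and -6.88 without MA9+SETDB1 replicate 1). Cebpd and Cux1 were lower by log2 fold changes of -2.44 and -0.76. Runx1 averaged 479 ± 21.1 CPM in MA9+SETDB1 and 64.5 ± 13.1 CPM in MA9+EV (SD, n = 3 each; log2 fold change 2.89, edgeR adjusted p = 2.68e-05).

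Other genes of the alternative complement pathway and complement receptors did not follow Cfd. Of 12 listed genes 8 were tested, with 6 higher and 2 not called, beside 27.4% higher among all tested genes. The median log2 fold change of the list was 1.54, and 2 genes were called lower without MA9+SETDB1 replicate 1. Cfp, the gene of properdin, which stabilises the convertase, averaged 290 ± 2.81 CPM in MA9+SETDB1 and 128 ± 14 CPM in MA9+EV (SD, n = 3 each; log2 fold change 1.18, edgeR adjusted p = 0.000213). C3ar1, the receptor gene of the C3a fragment, averaged 96.5 ± 7.01 CPM in MA9+SETDB1 and 0.510 ± 0.254 CPM in MA9+EV, and Cd55, which dissociates the convertase, averaged 364 ± 150 CPM in MA9+SETDB1 and 0.678 ± 0.988 CPM in MA9+EV (SD, n = 3 each). Their log2 fold changes were 7.54 and 9.0, the second of these 11.57 without MA9+EV replicate 1. Both genes passed the filter on low counts only through MA9+SETDB1, so they could only be called higher. The sizes of these changes rest on few MA9+EV counts. Cfb, whose product is the substrate of complement factor D, had 0 counts over MA9+SETDB1 and 1 over MA9+EV.

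Cathepsin C also processes proteases of mast cells, basophils and cytotoxic lymphocytes. Of 16 such genes 4 were tested, with Cma1, Gzmb and Mcpt8 higher and Gzmm not called, beside 27.4% higher among all tested genes. Cma1 and Gzmb passed the filter on low counts only through MA9+SETDB1, so they could only be called higher. The summed level of the 16 genes was 698 to 829 CPM in the MA9+SETDB1 libraries and 16.1 to 29.0 CPM in the MA9+EV libraries. For the 9 primary granule genes it was 3412 to 5276 CPM in MA9+SETDB1 and 16182 to 19067 CPM in MA9+EV. Not tested were Mcpt1, Mcpt2, Cma2 and Mcpt9, with 42, 37, 12 and 2 counts over MA9+SETDB1 and 0 over MA9+EV, Gzme, with 0 counts over MA9+SETDB1 and 4 over MA9+EV, and Gzma, Gzmc, Gzmd, Gzmf, Gzmg, Gzmk and Mcpt4, with no counts. Without any single MA9+EV library, 5 were called higher.

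**Figure D5:**
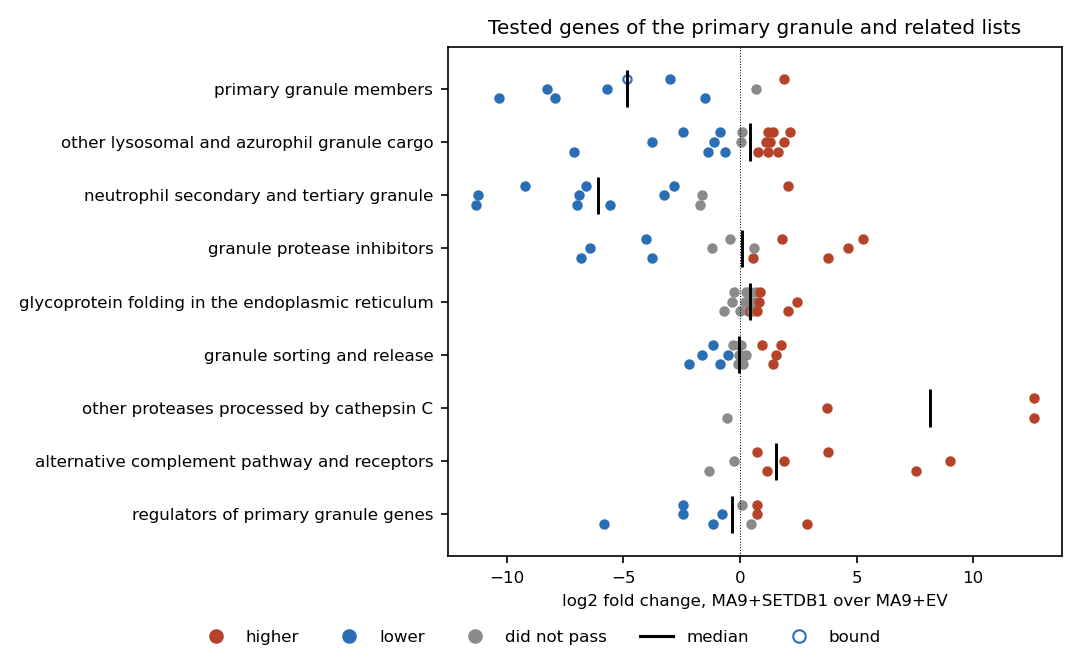
Log2 fold change, MA9+SETDB1 over MA9+EV, of the tested genes of the 9 primary granule genes and of 8 related lists, with a line at each median. The primary granule genes (median -4.85 with Cfd at its bound) and the later neutrophil granule genes (median -6.09) lie mostly below 0, while lysosomal cargo (0.45), inhibitors (0.07), folding (0.42) and sorting genes (-0.03) lie around 0.

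Markers of several cell types moved with these changes. Their counts stand beside 26.2% lower and 27.4% higher among all tested genes. Of 9 granulocyte-monocyte progenitor markers 7 were lower and 2 higher (median log2 fold change -3.25), and their summed level was 885 to 1266 CPM in the MA9+SETDB1 libraries and 4407 to 5030 CPM in the MA9+EV libraries. Csf3r, the granulocyte colony-stimulating factor receptor gene, averaged 0.175 ± 0.126 CPM in MA9+SETDB1 and 53.0 ± 27.4 CPM in MA9+EV, and Hk3 averaged 1.10 ± 0.717 CPM in MA9+SETDB1 and 440 ± 70.5 CPM in MA9+EV (SD, n = 3 each). Both are among the 7 lower genes, and the 2 higher genes of this list are not named here. Of 13 monocyte and macrophage markers 8 were tested, with 3 higher and 5 lower, and summed levels of 542 to 1483 CPM in MA9+SETDB1 and 815 to 2015 CPM in MA9+EV, ranges that overlap. Ly86 and C1qa of this list were at 0 in MA9+SETDB1, and its 3 higher genes are not named here.

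Of 12 mast cell and basophil markers 11 were tested, with 10 higher and Kit lower, and their summed level was 11110 to 11637 CPM in the MA9+SETDB1 libraries and 173 to 209 CPM in the MA9+EV libraries, where Tpsb2 and Tpsab1 were at 0. All 9 eosinophil markers were higher, at 340 to 366 CPM summed in MA9+SETDB1 and 4.94 to 7.35 CPM in MA9+EV, where Ear1, Ccr3 and Il5ra were at 0. Of 13 erythroid markers 12 were tested and 11 were higher, at 2942 to 3197 CPM in MA9+SETDB1 and 935 to 961 CPM in MA9+EV, where Slc4a1, Alas2 and Car1 were at 0. These levels shifted in the same libraries as the granule genes. Tested genes at 0 in MA9+EV passed the filter on low counts only through MA9+SETDB1, so they could only be called higher. Among all tested genes 27.4% were called higher.

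Of 9 megakaryocyte markers 6 were tested, with 3 higher and Pf4 lower (2 lower without MA9+SETDB1 replicate 1), at 786 to 863 CPM in MA9+SETDB1 and 2.85 to 5.44 CPM in MA9+EV. Gp1bb had no counts in MA9+SETDB1. Of 9 lymphoid markers 3 were tested and 2 were higher, at 31.0 to 51.4 CPM in MA9+SETDB1 and 19.1 to 28.7 CPM in MA9+EV, with 1 higher when replicate numbers were blocked or MA9+SETDB1 replicate 2 or 3 was left out, and 4 higher without MA9+EV replicate 1. Cd3e, Ms4a1 and Klrb1c had no counts in either arm. The part of these cell types in the change of the primary granule genes was not tested.

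The tested genes whose pattern over the 6 libraries was most like that of Elane were Tfec, App, Nrp2, F13a1 and Myl10, by the root mean square difference of log2 CPM profiles centred on their own means (0.20, 0.34, 0.34, 0.38 and 0.44). Tfec, a transcription factor gene of the MiT family, stood at 0.224, 0.304 and 0.364 CPM in MA9+SETDB1 replicates 1, 2 and 3, against 384, 398 and 394 CPM in MA9+EV replicates 1, 2 and 3. App averaged 0.427 ± 0.0542 CPM in MA9+SETDB1 and 540 ± 197 CPM in MA9+EV, and F13a1, the coagulation factor XIII A chain gene, averaged 0.862 ± 0.219 CPM in MA9+SETDB1 and 1254 ± 529 CPM in MA9+EV (SD, n = 3 each). These genes were picked from the same 6 libraries for their likeness to Elane, so their split by arm without overlap followed from the choice. Among all tested genes the arms did not overlap for 64.6%. Tfec, App, Nrp2 and Myl10 passed the filter on low counts only through MA9+EV, so they could only be called lower. The likeness is a description over 6 libraries that share 1 contrast.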

How the data were processed

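Poly-A RNA from 6 libraries, 3 MA9+SETDB1 and 3 MA9+EV, was used. The other 20 of the 26 samples (ChIP-seq and ATAC-seq) were not analysed here. Each deposited file held raw counts of reads per gene. Per the submitters' processing notes, the build was GRCm38 and the tools included, with no role or order, STAR 2.6.0c, HTSeq 0.11.0 and cutadapt 1.18. The strand setting of the counting is unstated in the sources used here. The summary lines in each file, 24.6% to 26.3% of its entries, were left out. Reads aligned to several places are among them, so near-identical genes can lose counts.

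Of the 54146 versioned Ensembl identifiers, 52480 were matched to symbols by version, 1599 by the unversioned identifier and 67 not at all. Genes passing filterByExpr were scaled by TMM and tested in edgeR 4.0.16 (R 4.3.3) with the quasi-likelihood F-test of MA9+SETDB1 over MA9+EV, without a block, and Benjamini-Hochberg adjustment over all tested genes (threshold 0.05). CPM were computed on TMM-scaled library sizes. Coordinates, neighbours and promoters came from RefSeq on GRCm38.p6. Alternatives were RLE (the size factors of DESeq2) and upper-quartile scaling, no filter on low counts, DESeq2 1.42.0, the replicate block, each library left out in turn, and replicates 2 and 3 summed.

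Across genes, the departures from the arm mean correlated between libraries of the same number at 0.257, 0.196 and 0.169. Replicates 2 and 3 correlated as well when crossed (0.203 and 0.177), so the numbers set replicate 1 apart but do not pair replicates 2 and 3. A block by number was therefore used only as an alternative. The members, lists and tests were chosen with earlier results of these data known. Named genes were Setdb1, the members, up to 4 tested genes of each list with the smallest p-values, genes of a list without counts or not tested, neighbours within 200 kb, and the 5 genes most like Elane. Genes named outside this rule were chosen after their values were seen. Some listed genes are counted but not reported by name here.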

Additional observations from a re-analysis of the deposited data

How the results depend on the processing

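Elane, Prtn3, Mpo, Ctsg, Cfd and Serpinb1a kept their direction and their call in all 13 alternatives, with log2 fold changes of -10.40 to -10.25, -8.02 to -7.71, -8.46 to -7.92, -7.41 to -5.21 and -3.84 to -2.68 for the 5 of these with counts in both arms, in that order without Cfd. Prss57 kept its call in 10 of 13 alternatives and Ctsc in 12, and no member reversed. With the replicate number as a block, 3791 genes were higher and 3761 lower, 7 of the 9 members were lower and 1 higher, and 8 chromosome 10 neighbours were higher. Of the members' calls the block changed none, and beyond the chromosome 10 neighbours it changed counts by over 1.5 times only for the folding and lymphoid lists.

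With replicates 2 and 3 summed, 2292 genes were higher and 1928 lower, 6 members were lower and 0 higher (edgeR; Ctsc adjusted p = 0.0605 and Calr 0.49), and 0 chromosome 10 neighbours were higher and 2 lower. Without replicate 1 of both arms, an alternative added after seeing the data, 5314 genes were higher and 5285 lower, 2 members were higher, and 13 chromosome 10 neighbours were higher. DESeq2 called 2 members higher. Leaving out single libraries gave 2992 to 4231 genes higher and 2727 to 4063 lower, 6 to 7 members lower and 1 to 2 higher, and 1 to 7 chromosome 10 neighbours higher and 2 to 4 lower. With no filter on low counts 7 neighbours of Ctsg were higher.

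Neighbours that did not pass turned round at log2 fold changes near 0. These were Cdc34 (-0.043 with replicates 2 and 3 summed, and -7.7e-05 to 0.24 when single libraries were left out), Rnf126 (-0.0046 with upper-quartile scaling), R3hdm4 (-0.012 without replicate 1 of both arms, and -0.090 to 0.32 over single libraries left out), Arid3a (-0.027 summed, and -0.041 to 0.37 over single libraries left out) and Arhgap45 (-0.29 to 0.12 over single libraries left out). The cause was not tested. Depth limits Cfd, which had 110 counts over MA9+EV and 0 over MA9+SETDB1, so only a lower call was possible for it.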
